A study of Mus musculus with 6 samples.

Results

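The NF-kB subunits and their feedback inhibitors are described here as 10 genes, taken by symbol from the authors' table of 55487 genes: the subunit genes Rela, Nfkb1, Nfkb2, Relb and Rel, the inhibitor genes Nfkbia, Nfkbib and Nfkbie, Tnfaip3, and Bcl3. Each symbol matched 1 row, and all 10 passed the filter on low values, a normalized count of at least 10 in at least 3 of the 6 libraries. RNA-seq was done on YFP-positive cells sorted from the subventricular zone, the neural stem cell niche of the adult mouse brain. TKO samples were F/F for both Rb and p130 and -/- for p107, and THC samples were F/+ for both Rb and p130 and +/- for p107, so the comparison cells also carried 1 altered allele at each locus and were not wild type. All mice carried NestinCreERT2, a tamoxifen-inducible Cre under Nestin control, and an EYFP reporter at R26, on a mixed C57BL/6 and Sv/129 background. At 6 to 10 weeks of age they received tamoxifen by gavage at 200 mg/kg per day on 5 days, and the cells were collected 10 days after the last dose. There were 3 TKO and 3 THC samples, and each pooled tissue of more than 1 mouse and gave 200000 sorted cells or more. TKO 1 and THC 1 carry the batch label February, and the other 4 samples carry November. Reads assigned to genes numbered 15536084 to 16961817 per library. By GENCODE M21 (GRCm38), the genes whose values changed lie at chr10:19000910-19015657 (Tnfaip3), chr7:19808462-19822770 (Bcl3), chr11:23736847-23770970 (Rel) and chr19:46304320-46312385 (Nfkb2).

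NF-kB is a dimer of proteins that share the Rel homology domain. In resting cells IkB proteins hold it in the cytoplasm. In the canonical arm, cytokine receptors activate the IKK kinase complex, which marks IkB for degradation and lets dimers such as RelA with p50 enter the nucleus. In the non-canonical arm, the kinase NIK, encoded by Map3k14, drives processing of the Nfkb2 product to p52, which pairs with RelB. Several inhibitor genes, above all Nfkbia and Tnfaip3, are textbook targets of NF-kB itself and close a negative feedback loop. In the brain the pathway is known from microglia, astrocytes and endothelium as well as from neural progenitors.

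Because feedback in this family acts through kappaB sites near the start of the inhibitor genes, the promoters were read from RefSeq (GRCm38.p6), in windows of 250 bases before to 50 bases after each annotated start. Windows were given for 8 members: Nfkb2 with 3, Tnfaip3 with 2, and Rel, Rela, Nfkbia, Nfkbib, Nfkbie and Bcl3 with 1 each. The promoters of Nfkb1 and Relb were not used here. The kappaB consensus, searched on both strands, matched in the windows of 6 of these 8 members, against 9.55% of all 27025 genes with a window. Per window the counts were 8 of 11 for the members and 8.46% for all 32851 windows. All 3 windows of Nfkb2 are among these 8. Its windows 2 and 3 overlap and hold the same GGGACTTTCC site, so that site counts in both. The members without a match were Rela and Nfkbib. The stretches below run from 5′ to 3′ on the strand of the gene and show the matched letters in capitals. They are given for the 4 genes that were higher in TKO and for Nfkbia and Nfkbie, with Rela as the subunit gene whose window held no match.

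Tnfaip3: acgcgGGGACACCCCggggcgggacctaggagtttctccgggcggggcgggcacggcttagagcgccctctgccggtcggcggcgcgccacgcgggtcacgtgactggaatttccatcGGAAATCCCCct
Bcl3: gtcggcggcagGGGAAGTCCCgctgcccgg
Rel: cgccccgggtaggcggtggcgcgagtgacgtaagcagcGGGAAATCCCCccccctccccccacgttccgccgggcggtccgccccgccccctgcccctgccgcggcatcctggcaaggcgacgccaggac
Nfkb2: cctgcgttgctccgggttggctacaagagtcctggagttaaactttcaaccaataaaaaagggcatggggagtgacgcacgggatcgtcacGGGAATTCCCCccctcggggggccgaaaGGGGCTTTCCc
Nfkbia: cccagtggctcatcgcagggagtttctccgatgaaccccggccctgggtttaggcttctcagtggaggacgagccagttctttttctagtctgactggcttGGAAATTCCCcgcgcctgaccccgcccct
Nfkbie: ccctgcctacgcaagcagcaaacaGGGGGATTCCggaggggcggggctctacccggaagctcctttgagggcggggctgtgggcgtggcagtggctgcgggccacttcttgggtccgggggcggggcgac
Rela: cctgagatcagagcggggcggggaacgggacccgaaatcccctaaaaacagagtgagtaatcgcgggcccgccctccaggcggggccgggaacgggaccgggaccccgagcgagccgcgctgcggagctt

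On GRCm38.p6 these stretches are chr10:19015411-19015540 (minus strand) for Tnfaip3, chr7:19822735-19822764 (minus) for Bcl3, chr11:23770970-23771099 (minus) for Rel and chr19:46304607-46304736 (plus) for Nfkb2. Those of Nfkbia, Nfkbie and Rela are chr12:55492648-55492777 (minus), chr17:45555570-45555699 (plus) and chr19:5637411-5637540 (plus). Each is the 130 bases before the RefSeq start, except that of Bcl3, whose 30 bases span it. The starts of the 2 annotations differ. By the GENCODE M21 coordinates, the stretches of Tnfaip3, Nfkb2 and Bcl3 lie wholly inside the gene. Those of Rela and Rel overlap the gene in part. Positions below are counted from the RefSeq start. In Nfkb2 and Rel an overlapping pair of matches forms 1 block of capitals, and the Tnfaip3 match nearest to the start ends at base -3, where -1 is the base before the start. The Bcl3 match lies just after the start, from base 2 to base 11. The other Tnfaip3 window held no match. The other Nfkb2 windows, at starts further downstream, held matches as well. The ISRE core, GAAANNGAA on either strand, matched in the window of 1 of 8 members, Nfkbia, against 9.76% of all genes. E2F sites, searched on either strand as TTTCCCGC, TTTGGCGC, TTTCGCGC or TTTGCCGC, matched in 1 of 8, Rel, against 2.60% of all genes, and that match overlapped the kappaB match. These are matches of letters and were not tested for binding.

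Of the 10 members, 4 were higher and none was lower in TKO by limma with Benjamini-Hochberg adjustment over all 17278 genes tested, at an adjusted p under 0.05. Of all genes tested, 14.3% were called higher and 27.9% were called in either direction. By unadjusted p under 0.05 the same 4 members were higher and none was lower. The higher genes were Tnfaip3, Bcl3, Rel and Nfkb2. The median log2 change was 0.48 over the 10 members and 0.00 over all genes tested. Changes are on the log2(normalized count + 1) scale, from a fit with batch and genotype as terms. The TKO libraries lay wholly above the THC libraries for 2 members, Tnfaip3 and Bcl3, which also holds for 19.4% of all genes tested.

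Tnfaip3 encodes A20, a ubiquitin-editing enzyme that shuts down signalling between cytokine receptors and IKK. It had a normalized count of 995, 308 and 315 in TKO 1 to 3, against 205, 129 and 64.6 in THC 1 to 3. Every TKO library was above every THC library, and in each genotype the February library was the highest. The fitted log2 change was 1.93 (SE 0.25, adjusted p = 0.00014). It was 2.27 in the February pair and 1.76 among the November samples. It was called in each of the 6 fits that left out 1 library, with a change of 1.69 to 2.26. Since TKO 1 and THC 1 are the only February samples, leaving out either of them gives the November estimate, here and for each other gene.

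Bcl3 encodes an atypical IkB protein that acts in the nucleus with p50 or p52 dimers. It had 44.9, 33.3 and 30.9 in TKO 1 to 3, against 6.01, 10.4 and 4.04 in THC 1 to 3. The groups did not overlap, but the gene was near the filter: only 1 THC library reached a normalized count of 10, so Bcl3 entered the test through the TKO samples. The fitted log2 change was 2.32 (SE 0.49, adjusted p = 0.0041). The February pair gave 2.71 and the November samples 2.13. It was called in each fit that left out 1 library (2.04 to 2.71).

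**Figure D1:**
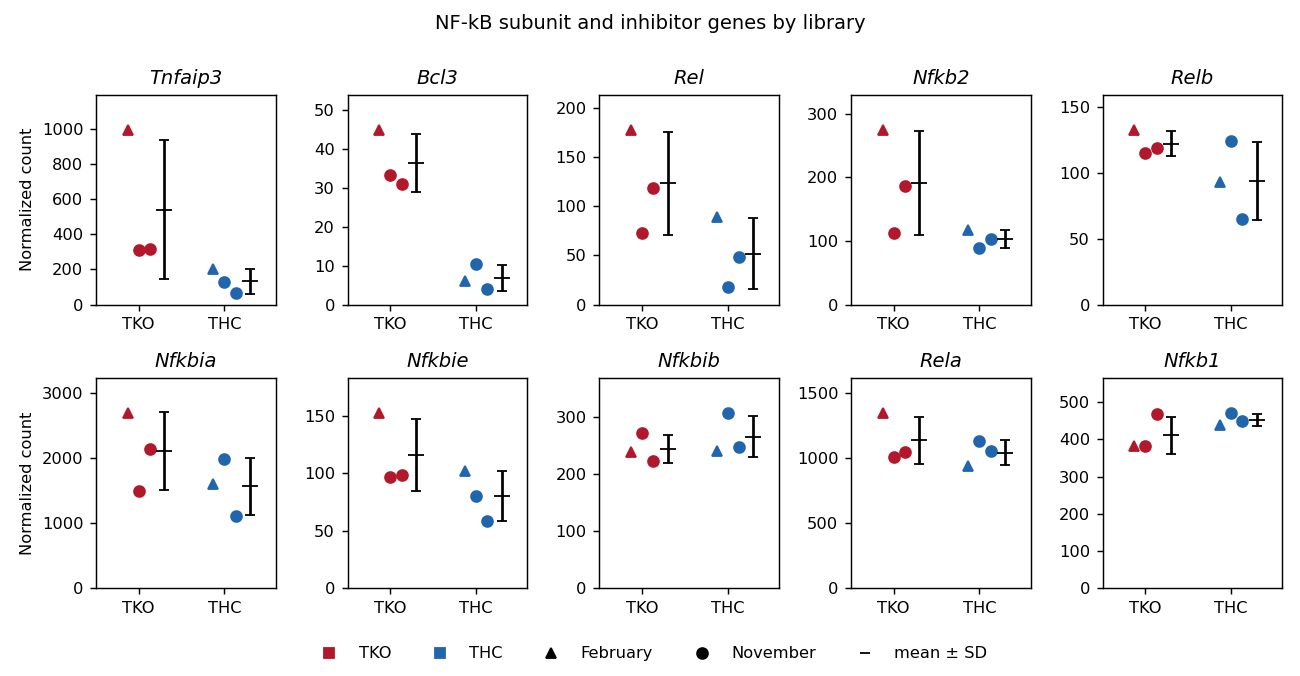
Normalized count of each of the 10 genes, on linear axes that start at 0, in the 3 TKO libraries (red, left) and the 3 THC libraries (blue, right). Triangles are February, circles are November, and the black marks give the mean ± SD. Tnfaip3 (308 to 995 in TKO, 64.6 to 205 in THC) and Bcl3 (30.9 to 44.9 in TKO, 4.04 to 10.4 in THC) are the members whose groups do not overlap.

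Among the subunit genes, Rel and Nfkb2 were higher in TKO, and Rela, Nfkb1 and Relb did not pass. Rela, which encodes the transactivating subunit RelA (p65), averaged 1136 ± 182 in TKO and 1044 ± 95.7 in THC (SD, n = 3 each). Its log2 change was 0.11 (SE 0.14, adjusted p = 0.61), with a 95% interval of -0.20 to 0.43. The values in TKO 1 to 3 were 1346, 1012 and 1051, against 942, 1132 and 1057 in THC 1 to 3. TKO 1 was the highest of the 6 libraries, and the direction differed between batches, at 0.51 in February and -0.09 in November. Nfkb1, whose product p105 is the precursor of p50, averaged 411 ± 49.3 in TKO and 452 ± 16.5 in THC, a log2 change of -0.15 (SE 0.15, adjusted p = 0.52, 95% interval -0.47 to 0.18).

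Rel encodes c-Rel, best known from lymphocytes and myeloid cells. It had 178, 73.1 and 119 in TKO 1 to 3, against 89.2, 17.9 and 48.5 in THC 1 to 3. The groups overlapped, because THC 1 lay above TKO 2. Within each batch every TKO library was above every THC library, and the fitted log2 change was 1.41 (SE 0.38, adjusted p = 0.016). The February pair gave 0.99 and the November samples 1.62. Without TKO 3 it was 1.15 and did not pass (adjusted p = 0.098), and with no batch term the adjusted p was 0.082.

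Nfkb2 encodes p100, which is both the precursor of p52 and an inhibitor of other dimers. It had 275, 113 and 186 in TKO 1 to 3, against 117, 88.8 and 104 in THC 1 to 3. TKO 2 lay below THC 1, so the groups overlapped. The fitted log2 change was 0.80 (SE 0.26, adjusted p = 0.038). The February pair gave 1.22 and the November samples 0.59. This call rested on single libraries: it did not pass without TKO 3 (0.66, adjusted p = 0.17) or THC 2 (0.80, 0.074), nor without TKO 1 or THC 1 (adjusted p = 0.20 and 0.18), which both leave the November estimate of 0.59. The counts were made without strand information, and 11.6% of the exon bases of Nfkb2 overlap AC114539.1, a gene on the opposite strand with a normalized count of 79.5 to 102 in TKO and 50.1 to 71.7 in THC. A further 6.52% overlap Psd, which had 62.3 to 173 in TKO and 122 to 194 in THC.

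Relb encodes RelB, the partner of p52. It averaged 122 ± 9.34 in TKO and 93.9 ± 29.5 in THC (SD, n = 3 each), a log2 change of 0.42 (SE 0.28, adjusted p = 0.30, 95% interval -0.19 to 1.03). The 3 TKO libraries, at 115 to 133, lay within a narrow range, and THC 2, at 124, was the library that made the groups overlap.

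The classical IkB genes did not pass. Nfkbia encodes IkB-alpha, the main rapid feedback inhibitor. It had 2687, 1498 and 2132 in TKO 1 to 3, against 1595, 1991 and 1116 in THC 1 to 3. The groups overlapped, and the log2 change was 0.43 (SE 0.21, adjusted p = 0.16, 95% interval -0.03 to 0.88). Without THC 2, the highest THC library for this gene, the change was 0.71 and passed (adjusted p = 0.0087). Nfkbie encodes IkB-epsilon, an inhibitor of dimers with RelA or c-Rel. It had 152, 96.7 and 98.5 in TKO 1 to 3, against 102, 80.3 and 58.6 in THC 1 to 3, a log2 change of 0.53 (SE 0.25, adjusted p = 0.15, 95% interval -0.02 to 1.08). In each batch the TKO libraries of Nfkbie were above the THC libraries, at 0.57 in February and 0.50 in November. Nfkbib, which encodes IkB-beta, averaged 245 ± 24.5 in TKO and 266 ± 35.9 in THC, a log2 change of -0.11 (SE 0.18, adjusted p = 0.70, 95% interval -0.51 to 0.29). Its exons share 1.94% of their bases with Sirt2 on the opposite strand, which had 2160 to 2473 in TKO and 3598 to 4014 in THC.

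**Figure D2:**
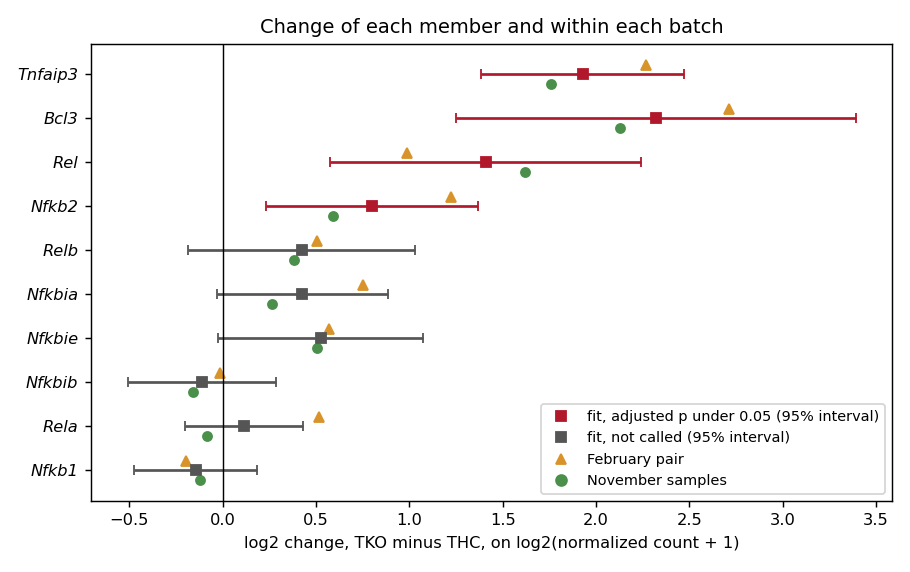
Log2 change, TKO minus THC, of each of the 10 genes. Squares with bars are the fit over 6 libraries with its 95% interval, in red where the adjusted p was under 0.05 and in grey otherwise; triangles are the February pair and circles the November samples. Tnfaip3 (1.93), Bcl3 (2.32), Rel (1.41) and Nfkb2 (0.80) are the called genes, and the batches differ in sign for Rela.

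The authors' deposited table, made with DESeq2 per the submitters' processing notes, calls the same 4 members at an adjusted p under 0.05. There the log2 fold changes, TKO over THC, are 1.89 for Tnfaip3 (adjusted p = 2.87e-12), 2.39 for Bcl3 (0.0022), 1.34 for Rel (0.0043) and 0.84 for Nfkb2 (0.022). For the other 6 members the adjusted p in the authors' deposited table lies between 0.239 and 0.765.

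Levels of different genes were compared per kilobase of exon. By normalized count per kilobase, Nfkbia was the most abundant member, at 1308 ± 369 in TKO and 973 ± 272 in THC (SD, n = 3 each). Rela was next, at 370 ± 59.4 and 340 ± 31.2 per kilobase in TKO and in THC, followed by Nfkbib at 113 ± 11.3 in TKO and 122 ± 16.6 in THC. These first 3 did not overlap each other in either genotype. Below them the order differed between the genotypes. Tnfaip3 ranked 4 of 10 in TKO, at 74.6 ± 54.6 per kilobase, and 8 of 10 in THC, at 18.4 ± 9.76. These ranks are for merged exons: per kilobase of the longest transcript Tnfaip3 ranked 5 in TKO, below Nfkb1, and 8 in THC, and Bcl3 ranked above Rel in TKO. From Nfkbie down to Bcl3 in THC each gene overlapped its neighbour, and in TKO the same held from Nfkbib down to Relb and for Rel with Bcl3. Rel and Bcl3 were the lowest pair, at 16.5 ± 7.02 and 14.7 ± 3.02 in TKO, and 6.95 ± 4.79 and 2.75 ± 1.31 in THC.

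**Figure D3:**
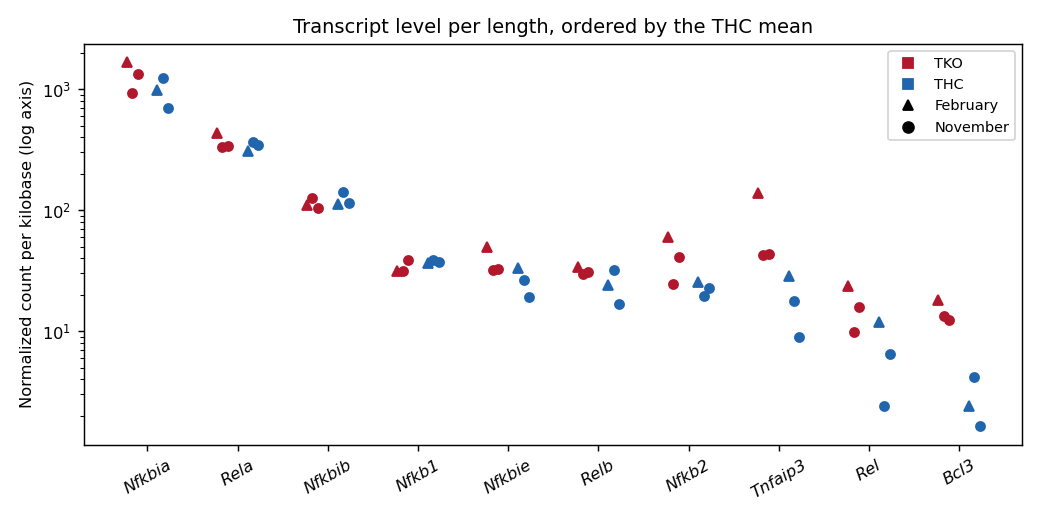
Normalized count per kilobase of exon (log axis) of the 10 genes in the 3 TKO libraries (red, left of each pair) and the 3 THC libraries (blue, right), ordered by the THC mean. Nfkbia, at a mean of 1308 in TKO and 973 in THC, and Rela, at 370 and 340, stand above the rest, and Tnfaip3 ranks 4 in TKO and 8 in THC with merged exons as the length.

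Within the 5 subunit genes, Rela made up most of the transcripts per length. Its share of the summed normalized count per kilobase was 74.5%, 77.5% and 73.1% in TKO 1 to 3, against 75.8%, 79.9% and 80.6% in THC 1 to 3. The shares of Rel were 4.05%, 2.30% and 3.40% in TKO, against 2.95%, 0.521% and 1.52% in THC. Those of Nfkb2 were 10.2%, 5.79% and 8.69% in TKO, against 6.32%, 4.20% and 5.31% in THC. The genotypes overlapped for each of these 3 genes. The share of Nfkb1 was 5.40%, 7.44% and 8.28% in TKO, against 8.98%, 8.45% and 8.70% in THC, so that every TKO library was below every THC library. Its size depends on the length used: the merged exons of Nfkb1 span 12.061 kb and its longest transcript 4.149 kb, which gives a mean of 16.2% in TKO and 19.6% in THC, again without overlap. A share also moves with the other subunit genes. The normalized counts of Nfkb1 themselves overlapped, at 382 to 467 in TKO and 438 to 470 in THC.

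By the distance between log2 profiles over the 6 libraries, the genes most like Tnfaip3 among 11906 genes with a mean normalized count of at least 100 were Icam1 (distance 0.66), Gm49450 (0.84) and Kctd12 (0.997). Icam1, an adhesion molecule gene and a known NF-kB target, had 765, 259 and 363 in TKO 1 to 3, against 159, 161 and 64.6 in THC 1 to 3. Like Tnfaip3, it was highest in TKO 1 and did not overlap between the genotypes. Icam1 was picked for its likeness to Tnfaip3 in these libraries, so this shared pattern is not a separate result. Those most like Bcl3 were Stom (0.47), Rhod (0.51) and Gfap (0.55), the last an intermediate filament gene of astrocytes and stem cells with 17885 to 28980 in TKO and 4447 to 7494 in THC. Those most like Rel were Lonrf3 (1.09), Gria3 (1.26) and Gm3226 (1.26). The distances rest on 6 libraries that share genotype and batch.

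Of 25 genes of the IKK complex and its adaptors, 3 were higher, 1 was lower and 21 did not pass, with a median log2 change of -0.01. These are 12% higher and 16% called, against 14.3% and 27.9% of all genes tested. This list and those below were chosen with earlier results of these data known. Their shares beside those of all genes are thus descriptions and were not tested. Myd88, the adaptor of Toll-like and IL-1 receptors, rose by 0.69 (SE 0.17, adjusted p = 0.0092), with 354 to 497 in TKO and 252 to 257 in THC. Without TKO 1 or THC 1 it was 0.54 and did not pass (adjusted p = 0.071 and 0.060). Ripk1, a kinase of the TNF receptor complex, rose by 0.42 (SE 0.13, adjusted p = 0.027), Tab2 rose by 0.36 (adjusted p = 0.049), and Tab1 fell by 0.50 (adjusted p = 0.047). With 1 library left out, Ripk1 and Tab2 passed in none of 6 fits, with an adjusted p of up to 0.099 and 0.15, and Tab1 failed without TKO 2, TKO 3, THC 2 or THC 3 (-0.55 to -0.37). The IKK genes themselves were at -0.34 for Ikbkb (adjusted p = 0.062), -0.11 for Ikbkg (0.56) and -0.01 for Chuk (0.97). For Ikbkb the TKO libraries, at 1105 to 1266, lay below the THC libraries, at 1394 to 1596.

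Of 12 genes of the non-canonical arm, 8 could be tested, and 3 were higher, 1 was lower and 4 did not pass (median 0.17; 37.5% higher and 50% called, against 14.3% and 27.9% of all genes). Tnfrsf12a, the receptor of the cytokine TWEAK, had 528, 343 and 601 in TKO 1 to 3, against 74.2, 98.2 and 99.0 in THC 1 to 3. Its groups lay far apart, and the log2 change was 2.40 (SE 0.24, adjusted p = 2.13e-05). Map3k14, which encodes NIK, the kinase of this arm, had 323, 299 and 377 in TKO against 162, 176 and 190 in THC. It rose by 0.91 (SE 0.18, adjusted p = 0.0028), and every TKO library was above every THC library. Tnfrsf13c, which encodes the receptor of the cytokine BAFF, rose by 1.28 (adjusted p = 0.034) and had 31.9 to 35.1 in TKO. Cd40, a receptor of antigen-presenting cells, fell by 1.52 (SE 0.45, adjusted p = 0.024), with 7.81 to 16.4 in TKO and 26.3 to 49.1 in THC. Tnfrsf13c passed in none of the 6 fits without 1 library (1.18 to 1.36), and Cd40 failed without TKO 1, TKO 2, THC 1 or THC 2 (-1.51 to -1.25).

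Of 20 other inhibitors of the pathway, 19 could be tested: 1 was higher, 2 were lower and 16 did not pass (median -0.15; 5.26% higher and 15.8% called, against 14.3% and 27.9% of all genes). Nfkbiz, which encodes the nuclear protein IkB-zeta and is related to Bcl3, rose by 0.83 (SE 0.15, adjusted p = 0.0017), with 1827, 750.1 and 906 in TKO against 792, 552 and 503 in THC. TKO 1 was again the highest library, TKO 2 lay below THC 1, and with no batch term the gene did not pass (adjusted p = 0.070). Pdlim2, a ubiquitin ligase for nuclear RelA, fell by 1.99 (SE 0.21, adjusted p = 2.78e-05), with 70.9 to 81.1 in TKO and 283 to 310.0 in THC. Nkiras1, which encodes a Ras-like protein that binds IkB-beta, fell by 0.52 (adjusted p = 0.032), a call that held only without TKO 2 among the fits with 1 library left out (-0.61 to -0.39 over the 6). Tnip1, a partner of A20, was at -0.42 (adjusted p = 0.20), the deubiquitinase gene Cyld at 0.14 (0.51), and Nfkbid, a further nuclear IkB, at 0.59 (0.27).

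Cytokines and receptors that activate the pathway differed in both directions. Of 18, 15 could be tested, and 6 were higher, 3 lower and 6 did not pass (median 0.74; 40% higher and 60% called, against 14.3% and 27.9% of all genes). Tnf had 558, 43.0 and 43.5 in TKO 1 to 3, against 123, 12.3 and 14.1 in THC 1 to 3. The 4 November libraries lay far below the February pair, THC 1 lay above TKO 2 and TKO 3, and the log2 change was 1.82 (SE 0.30, adjusted p = 0.00087). Il1b, Il1a, Cd14 and Tlr2, all well known from myeloid cells, rose by 2.56, 1.77, 2.35 and 2.27, and in each the February libraries were the highest of their genotype. Tnfrsf1a, the TNF receptor gene expressed in most cell types, had 891, 732 and 803 in TKO against 528, 529.8 and 354 in THC. Its February libraries did not stand apart, and it rose by 0.80 (SE 0.16, adjusted p = 0.0034). Il18, Tlr3 and Il33 fell by 1.41, 1.04 and 0.74. With no batch term Tnf, Il1b, Il1a and Cd14 did not pass (adjusted p = 0.25, 0.13, 0.23 and 0.13), nor did Il33 (0.053). None of the 6 higher genes passed with the microglial marker level as a further term. Over all genes tested, that term cut the higher calls from 2469 to 650 and left 2 residual degrees of freedom.

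Among 29 NF-kB target genes, 23 could be tested, and 7 were higher, 2 lower and 14 did not pass (median 0.33; 30.4% higher and 39.1% called, against 14.3% and 27.9% of all genes). Il6 had 275, 74.2 and 159 in TKO 1 to 3, against 10.0, 2.83 and 2.02 in THC 1 to 3, a log2 change of 4.89 (SE 0.42, adjusted p = 7.69e-06). Only 1 THC library reached a normalized count of 10, so Il6, like Bcl3, entered the test through the TKO samples, and its fitted change rests on THC values of 2.02 to 10.0. C3, the central complement component, rose by 2.82 (SE 0.30, adjusted p = 3.22e-05), with 235 to 418 in TKO and 35.1 to 65.2 in THC. Cxcl1, a neutrophil chemokine gene, rose by 2.12 (SE 0.29, adjusted p = 0.00022), and Ptgs2 and Ier3 rose by 2.03 and 1.37 without overlap between the genotypes. Ccl2 rose by 2.04, with 376, 101 and 204 in TKO 1 to 3 against 206, 18.9 and 26.3 in THC 1 to 3. Cxcl2 rose by 2.32, with 231, 21.5 and 59.9 in TKO against 108, 2.83 and 5.05 in THC, and only 1 THC library reached 10. For both chemokine genes the groups overlapped and the February library was the highest of its genotype, as for the microglial markers, and neither passed with no batch term (adjusted p = 0.083 and 0.19). Cx3cl1 and Bcl2l1 fell by 0.99 and 0.41, Bcl2l1 with a call in 1 of the 6 fits without 1 library, and targets such as Traf1 (-0.43, adjusted p = 0.21), Birc3 (0.33, 0.45) and Sod2 (-0.36, 0.052) did not pass. Of 11 targets that interferon also induces, 9 could be tested: 8 were higher, none was lower and 1, Il15, did not pass (median 1.73; 88.9% higher, against 14.3% of all genes). By unadjusted p under 0.05 the count of lower genes there was 0 as well. Irf1, a transcription factor gene, had 3107, 1551 and 2291 in TKO against 771, 701 and 562 in THC, a rise of 1.73 (SE 0.17, adjusted p = 1.78e-05). Cxcl10 and Tap1 rose by 4.79 and 2.66.

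**Figure D4:**
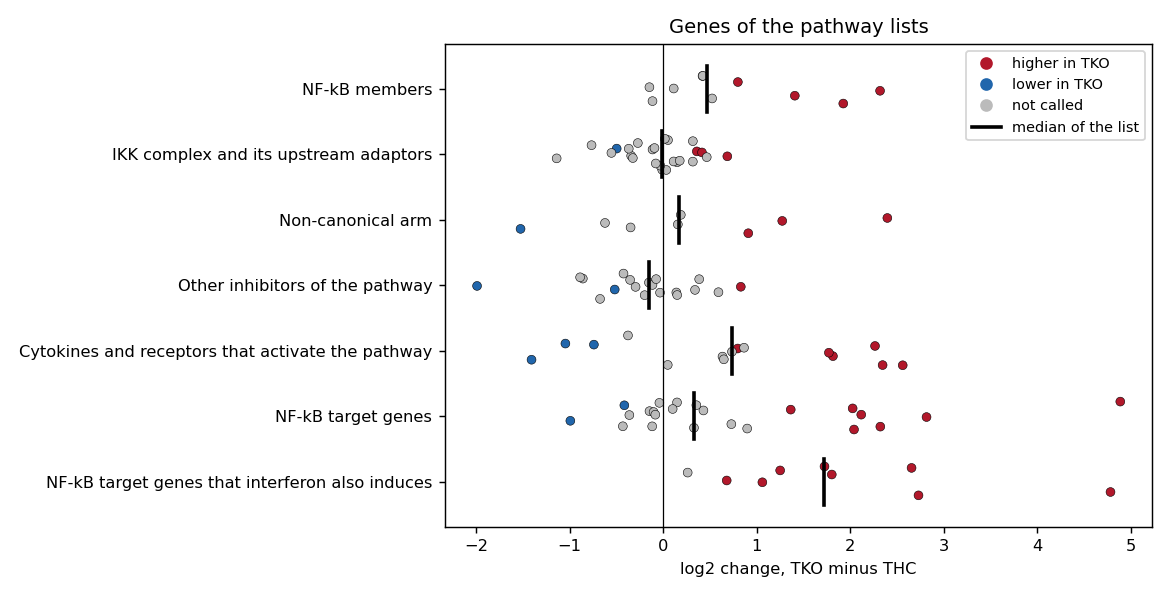
Log2 change, TKO minus THC, of every tested gene of the NF-kB members and the 6 pathway lists. Each point is 1 gene, red where called higher, blue where called lower and grey where not called; black bars are the medians. The list medians run from -0.15 for the other inhibitors to 1.73 for the targets that interferon also induces.

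Markers of cell types were read beside these genes, several of which are known from microglia. Beside the marker counts stand those of all genes tested: 14.3% were called higher, 2345 of 17278 lower, and 27.9% in either direction. Of 10 markers of neural stem cells and astrocytes, 4 were higher and 1 was lower in TKO. Slc1a3, the most abundant, had 66948 to 83249 in TKO and 50277 to 102905 in THC. Vim, Gfap and Nes rose by 2.01, 2.01 and 1.21, and Aldoc fell by 2.35, with 5931 to 9640 in TKO and 29615 to 41210 in THC. Of 8 markers of activated stem cells and progenitors, 4 were higher and 1 was lower, and Top2a had 18843 to 22044 in TKO and 4967 to 7807 in THC. Of 7 neuroblast markers, 4 were lower and none was higher by limma (4 and 0 by unadjusted p under 0.05), among them Dcx and Tubb3, which fell by 0.73 and 1.04. All 18 microglia and macrophage markers were tested; 9 were higher and none lower in TKO (median 0.96), and by unadjusted p under 0.05 the counts were 14 and 0. Their summed normalized count was 12074, 3083 and 1980 in TKO 1 to 3, against 7421, 1794 and 1323 in THC 1 to 3. The February pair thus held several times the level of the November libraries. In the same fit, the February minus November difference was 1.41 for Tnfaip3 (SE 0.26, adjusted p = 0.034), the only member called for batch, where 0.637% of all genes were called. It was 1.24 for Rel (adjusted p = 0.21) and 0.18 for Bcl3 (0.91).

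TKO 2 and TKO 3 had less microglial marker transcript than THC 1 and more Tnfaip3, at 308 and 315 in these TKO libraries against 205 in THC 1. The same held for Bcl3, at 33.3 and 30.9 in TKO 2 and TKO 3 against 6.01 in THC 1. For Rel, TKO 2 at 73.1 and TKO 3 at 119 lay on either side of THC 1 at 89.2, and for Nfkb2, TKO 2 at 113 and TKO 3 at 186 lay on either side of THC 1 at 117. THC 1 is a February library and TKO 2 and TKO 3 are November libraries. Batch and marker level therefore cannot be told apart in these comparisons. With the November samples alone, Tnfaip3, Bcl3 and Rel were called (1.76, 2.13 and 1.62, adjusted p = 0.0014, 0.027 and 0.028) and Nfkb2 was not (0.59, 0.20). Among these samples the summed microglial level was also higher in TKO, at 3083 and 1980, than in THC, at 1794 and 1323. Genotype and marker level therefore cannot be told apart there either. With the log2 summed microglial level as a further term, Rel was called (2.62), and Tnfaip3 (1.44, adjusted p = 0.098), Bcl3 (1.64, 0.38) and Nfkb2 (1.43, 0.11) were not. That fit left 2 residual degrees of freedom and called 650 genes higher and 351 lower, against 2469 and 2345 in the fit with batch and genotype alone.

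**Figure D5:**
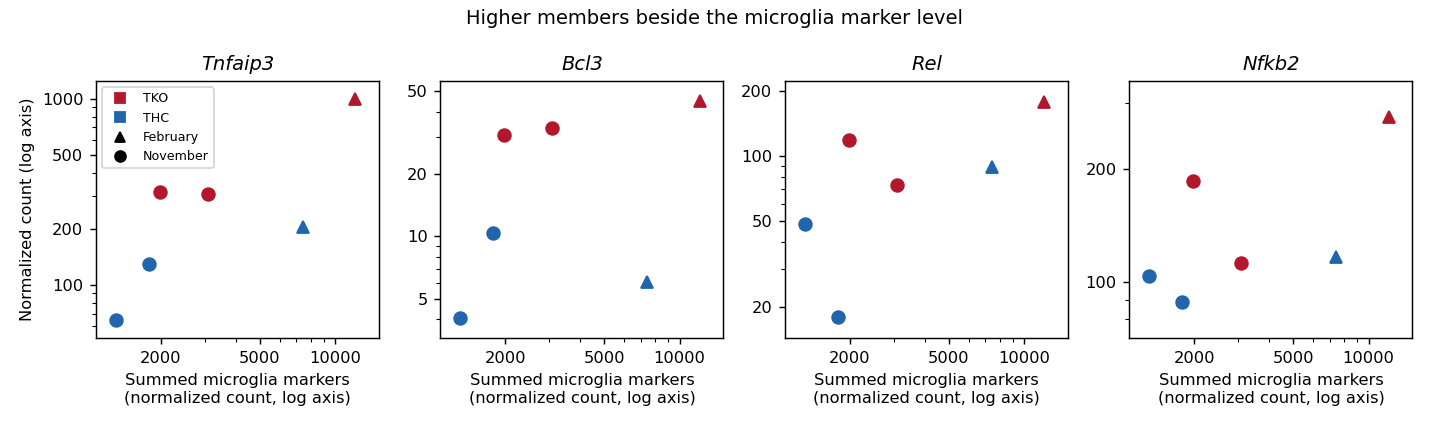
Normalized count of the 4 higher members against the summed normalized count of 18 microglia markers, both on log axes, in TKO (red) and THC (blue) libraries; triangles are February and circles November. TKO 2 and TKO 3, at marker sums of 3083 and 1980, lie above the February THC library, at 7421, for Tnfaip3 and Bcl3.

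Other cell types differed as well, where 2345 of all 17278 genes tested were called lower and 27.9% were called in either direction. Of 16 endothelial and mural markers, 13 were lower and none was higher in TKO by limma (median -1.28; 15 and 0 by unadjusted p under 0.05), with a summed count of 6505 to 10369 in TKO and 16345 to 29555 in THC. All 10 oligodendrocyte markers were lower. No lymphocyte marker of 10 could be tested: 5 had no reads in any library, and the list summed to 5.86 to 16.1 in TKO and 1.89 to 16.0 in THC. The part of these differences in cell makeup in the changes of the members was not tested beyond the values above, and in such sorted pools fewer cells of a type and less RNA per cell cannot be told apart. As a check of the labels, Rbl1, which encodes p107, had 14.5 to 42.0 in TKO and 497 to 646 in THC. Rb1 rose by 0.82 and Rbl2, which encodes p130, was at -0.13 (adjusted p = 0.54); the floxed exons are not given in the labels, so gene-level counts do not check those deletions.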

How the data were processed

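RNA-seq was done on 3 TKO and 3 THC samples. Per the labels' protocols, RNA came from a PicoPure kit, at least 35 ng with an RQN of at least 8.0 was used, and libraries were made with SMART-Seq v4 and Nextera XT, which do not keep strand. The submitters' processing notes name HISAT2, featureCounts, Subread, DESeq2 and GRCm38; versions and the handling of reads with several hits are not given here. Samples of a genotype are separate pools of mice, and p-values rest on the spread between these pools. limma draws the variance of each gene toward that of genes of similar level, so it is not the spread of that gene alone.

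The authors' deposited table holds normalized counts, a signal scaled by 1 factor per library, whose values were whole multiples of 1 step per library within 0.001 of a read. It also holds, per the file headers, the authors' log2 fold change, its standard error and a Wald score, an unadjusted and an adjusted p-value, and a weight (a score) per gene.

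limma 3.58.1 (R 4.3.3) was fitted to log2(normalized count + 1) with an intensity trend and batch plus genotype, over 17278 genes with a normalized count of at least 10 in at least 3 libraries. This left 3 residual degrees of freedom and 8.90 prior ones. The procedure was checked on simulated data with the same dispersion for all genes, no batch shift, and changes only in genes well above the filter. Changes in low genes such as Bcl3 and the shift between batches were not covered by that check. Spreads as wide as that of Rel in THC (mean 51.9, SD 35.8) were not covered either. Lengths come from GENCODE M21 (GRCm38) and promoters from RefSeq (GRCm38.p6). The members and 15 further lists were chosen with earlier results of these data known, and all 220 symbols matched. Named genes were all members, Rbl1, Rb1 and Rbl2, the 3 called genes with the smallest adjusted p in each pathway list, direct partners of the members (IKK genes, Map3k14, Nfkbiz, Nfkbid, Tnip1, Cyld), the 3 genes nearest to each of 3 members, and the most abundant markers; other genes were named after their values were seen. Alternatives were other pseudocounts (0.5, 10), filters (none, 50), scaling, no batch term, the replicate number as a block, and leaving out each library. Settings with November alone, with the microglial level as a term, and the shares without 1 library were chosen after seeing the data.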

Additional observations from a re-analysis of the deposited data

How the results depend on the processing

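Over up to 15 alternatives, Tnfaip3 was called in 14, Bcl3 in 13 of 14, Rel in 13 and Nfkb2 in 6; at the filter of 50 Bcl3 could not be tested. The count of higher members was 2 with no batch term, 1 with the microglial level as a further term and 2 to 4 without 1 library, and the count of lower members was 0 throughout. With the replicate block the higher members numbered 4, and 2147 genes were higher and 1922 lower overall; TKO and THC samples of the same number had correlations of 0.23, -0.11 and 0.14 in their deviations from the group means, so the numbers were not taken to pair samples. All genes numbered 1793 to 2215 higher and 1600 to 2031 lower without 1 library, and 650 and 351 with the microglial term. The planned edgeR and DESeq2 fits were not run: for THC 1 and THC 3 the value of 1 read lies so near 1 that a check of the reads recovered from them did not accept them, and the printed totals of reads carry that doubt for these libraries. Without TKO 1, without THC 1 and in November alone the estimates are the same, so these are not separate checks.

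For the IKK list (3 higher, 1 lower), the higher count was 1 with no batch term, the replicate block or November alone, 0 with the microglial term and 1 to 2 without 1 library. The lower count was 2 at pseudocount 10, at the filter of 50 and in November, 3 with upper-quartile rescaling, 0 with no filter, no batch term, the replicate block or the microglial term, and 0 to 2 without 1 library. For the non-canonical arm, the higher count was 1 with the microglial term and 2 without any 1 library. Its lower count was 0 with no filter, the filter of 50, November alone or the microglial term, and 0 to 1 without 1 library. For the other inhibitors, the higher count was 0 with no batch term or the microglial term, and the lower count was 1 with the replicate block, November alone or the microglial term and 1 to 2 without 1 library. For cytokines and receptors, the higher count was 2 with no batch term and 0 with the microglial term. For targets, the lower count was 1 with no filter, no batch term, the replicate block, November alone or the microglial term, and 1 to 2 without 1 library. For targets that interferon also induces, the higher count was 4 with the microglial term. The cause of these differences was not tested.

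Rela reversed to -0.085 without TKO 1, without THC 1 or in November alone, and ranged up to 0.20 without 1 library. With the microglial term Nfkb1 was at 0.035 and Relb at -0.011. Chuk reversed to 0.12 without TKO 1, without THC 1 or in November alone, 0.01 without TKO 2, 0.02 without THC 3 and 0.24 with the microglial term. With the longest transcript as the length, the share of Nfkb1 was 16.2% in TKO and 19.6% in THC, and that of Rela 67.4% in TKO and 69.1% in THC. The all-gene median moved by at most 0.05 (log2) under any setting. With 3 pools a group, low genes such as Bcl3 rest on few reads.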
